A study of Mus musculus with 4 samples.

Results

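The 7 genes Tcf21, Nr2f1, Nr2f2, Maf, Foxd1, Meis1 and Meis2 encode transcription factors of the gonadal interstitium and of the renal stroma. They were chosen by name, with earlier results of these data known, and all 7 are among the 34682 rows of the count table. The table counts RNA reads per gene in 4 mouse libraries of E13.5 ovaries (E, embryonic day), of which 2 are mutants that overexpress Sall1 and 2 are wild type. In the mutants, a BAC carrying the regulatory elements and promoter of Wt1 drives the Sall1 coding sequence, and Wt1 is expressed in somatic cells of the gonad. The BAC was integrated by piggyBac transposition into female embryonic stem cells (C57BL/6J, or a hybrid of C57BL/6J and 129), G418-resistant clones were picked, and mice were made by morula aggregation. From how many clones the sequenced embryos came is not given in the sources used here. The wild-type columns are named B6 and the study calls its controls littermates, while its methods also name wild-type CD1 gonads for RNA-seq. How many embryos went into a library is not given in the sources used here.

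Factors of this kind mark the cells that lie between the gonadal cords and around the tubules of the developing kidney. Tcf21 is a basic helix-loop-helix protein of mesenchyme that is needed in the early gonad and in the kidney. Nr2f1 and Nr2f2 are orphan nuclear receptors, and Nr2f2 is a widely used marker of interstitial cells. Maf is a large bZIP factor that is present in gonadal interstitium and in macrophages. Foxd1 is the forkhead factor that defines stromal progenitors of the kidney, and Meis1 and Meis2 are TALE homeodomain proteins that bind DNA with Pbx and Hox partners and are present in many mesenchymes. Much of the fetal ovary consists instead of germ cells and pre-granulosa cells, the supporting cells that express Foxl2.

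The libraries held between 11036313 and 17869840 counts, and both mutant libraries were smaller than both wild-type libraries. Levels are given as CPM, counts scaled to library size with TMM, edgeR's trimmed-mean correction. Differences are log2 fold changes of mutant over wild type from edgeR's quasi-likelihood test, with their standard error (SE), and an adjusted p (Benjamini-Hochberg over all genes tested) under 0.05 counts as passing. The construct was visible in the counts, since Sall1 lay at 113 and 95.9 CPM in mutants and at 16.2 and 12.6 CPM in wild types (log2 fold change 2.85, SE 0.16, with adjusted p = 0.00823 in edgeR). Wt1, whose regulatory elements drive the construct, lay at 341 and 292 CPM in the mutants and at 309 and 309 CPM in the wild types. Ovarian identity was clear, with Foxl2 between 27.9 and 46.2 CPM and the Sertoli hormone gene Amh at 3 counts in each library. Germ cells were visible in Ddx4, a germ cell helicase, between 326 and 393 CPM. Wild-type replicate 1 stood apart in skeletal muscle transcripts. The summed level of 5 muscle markers was 193 CPM there, against 7.58 CPM in wild-type replicate 2 and 30.6 and 4.18 CPM in the mutants.

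The 250 bases upstream of the RefSeq transcript starts of Tcf21 and Nr2f2 are shown because these genes had the lowest and second lowest log2 fold change among the 6 factors tested. Both sequences were taken from the RefSeq promoter table of GRCm38.p6 and each matched NCBIM37 (mm9, the build of the counts) at 1 place, chr10:22539950-22540199 for Tcf21 and chr7:77511633-77511882 for Nr2f2. Both lie on the minus strand and are written 5′ to 3′, and the capitals mark a GATA motif (AGATAA).
Tcf21: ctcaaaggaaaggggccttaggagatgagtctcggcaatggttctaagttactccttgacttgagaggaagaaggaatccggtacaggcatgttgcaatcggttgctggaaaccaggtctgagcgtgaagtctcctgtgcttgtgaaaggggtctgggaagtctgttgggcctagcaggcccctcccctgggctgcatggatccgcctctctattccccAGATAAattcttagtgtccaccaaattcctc
Nr2f2: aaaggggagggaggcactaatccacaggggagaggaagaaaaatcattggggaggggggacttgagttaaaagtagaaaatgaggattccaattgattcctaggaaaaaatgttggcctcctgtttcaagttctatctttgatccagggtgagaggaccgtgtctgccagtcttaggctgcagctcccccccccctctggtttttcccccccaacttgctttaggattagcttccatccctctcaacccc
A set of motifs was searched on both strands of these windows, and the last 2 of them were added after the sequences had been seen. The E-box CAGCTG, read by basic helix-loop-helix proteins, is held by 13% of all 32851 promoters of this length in the table and was in none of the 6 factors with an entry. The nuclear receptor half-site AGGTCA is held by 14.0% of promoters and was in none of the 6. The MEIS motif TGACAG is held by 15.9% and was found upstream of Foxd1. The MAF motif TGCTGAC, which shares the letters TGAC with it, is held by 3.81% and was in none of the 6. The forkhead motif GTAAACA is held by 3.17% and was found upstream of Nr2f1. The GATA motif AGATAA is held by 9.99% and was found upstream of Tcf21 alone. The letters ATATT, an A/T-rich run of the kind that SALL zinc fingers read, are held by 23.4% and were found upstream of Foxd1 and Meis2. These matches are a description of letters only. Maf has no sequence shown.

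Expressed per kilobase of annotated exon (RPKM), which allows genes to be compared with each other, Tcf21 was the highest of the 7 factors. In the wild-type ovaries it reached 44.7 ± 3.42 RPKM (SD, n = 2), followed by Nr2f2 at 16.0 ± 2.36, Meis1 at 8.95 ± 0.947, Maf at 6.09 ± 0.119, Nr2f1 at 2.24 ± 0.484, Meis2 at 0.953 ± 0.0478 and Foxd1 at 0.316 ± 0.220 RPKM (SD, n = 2 each). No neighbours in this order overlapped between the wild-type libraries. The order was the same in the mutant ovaries, where Tcf21 lay at 21.0 ± 2.76 RPKM and Nr2f2 at 11.6 ± 3.32 RPKM (SD, n = 2 each). There, Nr2f2 and Meis1 (9.23 ± 1.11 RPKM) overlapped, while the other neighbours did not. In RPKM, Tcf21 was 2.80 times as abundant as Nr2f2 in wild-type ovaries and 1.81 times as abundant in mutant ovaries. This order rests on the annotated exon lengths, such as 1.223 kb for Tcf21 and 4.863 kb for Nr2f2. In CPM, without regard to length, Nr2f2 was above Tcf21, at means of 77.7 against 54.6 in wild types and 56.2 against 25.6 in mutants.

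**Figure D1:**
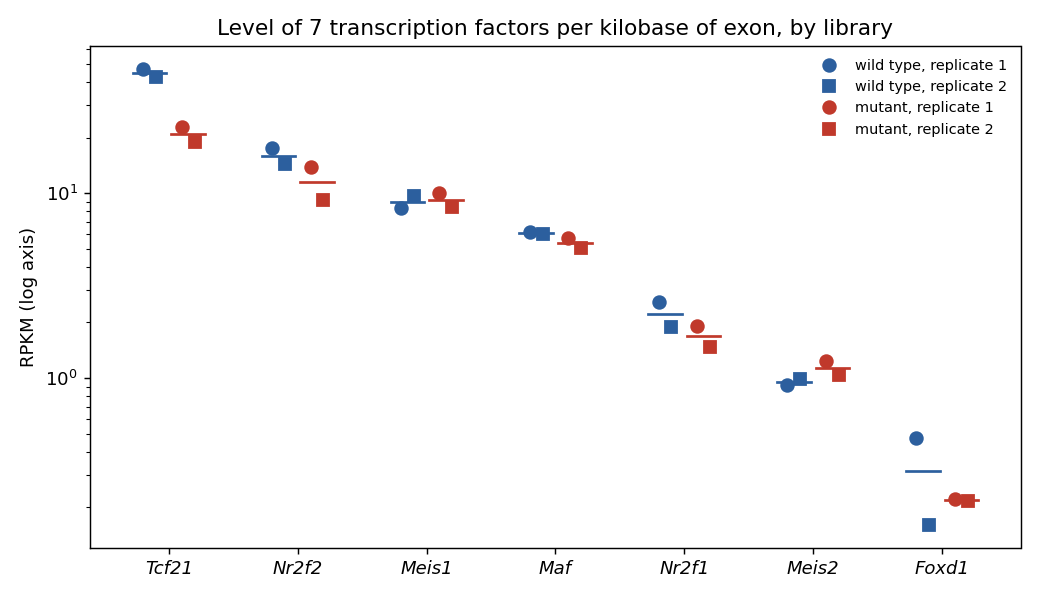
Level of the 7 factors in RPKM (log axis) in each library, with wild-type libraries in blue, mutant libraries in red and horizontal lines at the group means. Tcf21 is the highest in every library and its mutant points, 22.9 and 19.0 RPKM, lie well under its wild-type points, 47.1 and 42.3 RPKM.

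Tcf21 was at 0.468 of its wild-type level in the mutant ovaries, the lowest ratio among the 6 factors tested. The gene (ENSMUSG00000045680.7) lies on the minus strand of chromosome 10, chr10:22537085-22539934 in the GENCODE M1 annotation of NCBIM37, and no other annotated gene overlaps it. Mutants gave 309 and 350 counts, and wild types 992 and 913 counts. This corresponded to 28.0 and 23.2 CPM in the mutants and to 57.6 and 51.7 CPM in the wild types. The groups were far apart, since the higher mutant value was well under the lower wild-type value.
The level of Tcf21 was 2.14-fold lower in mutant ovaries (log2 fold change -1.096, SE 0.14, unadjusted p = 0.000105). Its p was rank 20 among the 15442 genes tested, and after Benjamini-Hochberg adjustment over all of them it was 0.0811 in edgeR's quasi-likelihood test, above the threshold of 0.05. In DESeq2, the tool used by the study, the same gene passed (log2 fold change -1.101, SE 0.19, adjusted p = 2.79e-06). Libraries of the same replicate number carry neighbouring library numbers in the column names, and within these the log2 difference was -1.037 for replicate 1 and -1.149 for replicate 2. In bulk ovaries, fewer cells expressing a gene and less RNA of it per cell cannot be told apart. The call depended on the libraries used, because the adjusted p in edgeR was 0.00379 without mutant replicate 1, 0.0282 without mutant replicate 2, 0.263 without wild-type replicate 1 and 0.104 without wild-type replicate 2, with a log2 fold change from -1.235 to -0.97. In these fits the library left alone in its group is assumed to vary like the other group.

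Of the 7 factors, 0 passed an adjusted p of 0.05 in edgeR in either direction, where 0.0583% of all genes tested did (0.0453% lower and 0.013% higher in mutants). At an unadjusted p under 0.05, Tcf21 was the 1 factor below the threshold in edgeR, against 5.69% of all genes. Nr2f2 lay just above it in edgeR (unadjusted p = 0.0545) and below it in DESeq2 (unadjusted p = 0.0175). DESeq2 called 1 of the 6 factors it tested, again Tcf21, against 0.694% of all genes (0.416% lower and 0.278% higher in mutants). The median log2 fold change of the 6 factors tested was -0.29, with 4 below 0 and 2 above, while the median of all genes tested was -0.00088. Both mutant libraries lay below both wild-type libraries for 3 factors, Tcf21, Nr2f2 and Maf, where 15.1% of all genes did so. Both lay above for 1 factor, Meis2, against 15.8% of all genes.

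Nr2f2, the interstitial nuclear receptor, was the factor with the next lowest log2 fold change. It lies at chr7:77496832-77511621 (minus strand, NCBIM37). Its level was 67.6 and 44.8 CPM in mutants, against 85.8 and 69.6 CPM in wild types. The groups did not overlap, but mutant replicate 1 came close to wild-type replicate 2, and replicate 2 was the lower library in both genotypes. The log2 fold change was -0.47 with SE 0.20, and its adjusted p was 0.891 in edgeR and 0.804 in DESeq2. Within replicate 1 the log2 difference was -0.34 and within replicate 2 it was -0.63. The estimate leaned on single libraries. It passed in edgeR without mutant replicate 1 (log2 fold change -0.80, adjusted p = 0.0457), and it shrank to -0.20 without mutant replicate 2 (adjusted p = 0.964).

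Nr2f1, its closest relative, was several times less abundant. Located at chr13:78328234-78339018 on the minus strand of NCBIM37, it had 9.06 and 7.04 CPM in the mutants and 12.3 and 9.0 CPM in the wild types. The groups overlapped, with mutant replicate 1 just above wild-type replicate 2. The log2 fold change of -0.41 (SE 0.24) did not pass, with adjusted p = 1.00 in edgeR. As for Nr2f2, replicate 2 was lower than replicate 1 in both genotypes, by a log2 difference of -0.36 in the mutants and -0.44 in the wild types. The same replicate order was seen in the summed levels of blood markers (3174 and 868 CPM in the mutants, 3485 and 1677 CPM in the wild types) and of the muscle markers, and the part of these in the levels of Nr2f1 and Nr2f2 was not tested. The coding sequences of Nr2f1 and Nr2f2 were identical at 83.5% of 1227 aligned bases. Only 10 of the 4507 stretches of 50 bases in the annotated coding transcripts of Nr2f1 also occurred in Nr2f2 transcripts.

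Maf differed little between the genotypes. It lies at chr8:118206842-118231694 on the minus strand of NCBIM37, and 5.34% of its exon bases overlap Gm15655 on the other strand, a gene that is not a row of the table. The mutant libraries had 47.0 and 41.9 CPM and the wild-type libraries 50.9 and 49.5 CPM. The groups did not overlap, though the gap between mutant replicate 1 and the wild types was small. The log2 fold change was -0.18 (SE 0.11, edgeR adjusted p = 1.00). Markers of macrophages, which also express Maf, summed to 63.2 and 35.1 CPM in the mutants and 47.8 and 37.0 CPM in the wild types, and 1 of the 5 (Emr1) had 0 counts throughout. Their part in the level of Maf was not tested.

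The Meis genes were level with or slightly above the wild type. Meis1 (chr11:18780433-18918961, minus strand) shares 12.1% of its exon bases with Gm16140 on the other strand, which had at most 1 count in a library. It had 74.1 and 62.5 CPM in mutants, against 61.3 and 71.2 CPM in wild types. The groups overlapped, and the log2 fold change was 0.042 (SE 0.13, edgeR adjusted p = 1.00). Meis2 (chr2:115688800-115891575, minus strand) had 14.8 and 12.3 CPM in the mutants and 10.9 and 11.7 CPM in the wild types. Its groups did not overlap, and the log2 fold change of 0.25 (SE 0.18, edgeR adjusted p = 1.00) was the highest of the 6 factors. In wild-type replicate 1, the library with the muscle transcripts, both Meis genes had their lowest level. The coding sequences of Meis1 and Meis2 were identical at 76.7% of 1398 aligned bases.

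Foxd1, the factor of renal stromal progenitors, was close to the limit of detection. It lies at chr13:99124200-99126660 on the plus strand of NCBIM37. Mutants gave 6 and 8 counts, and wild types 20 and 7, or 0.544 and 0.531 CPM against 1.16 and 0.396 CPM. Exact Poisson intervals (95%, counting error only) were 2.20 to 13.1 and 3.45 to 15.8 counts in the mutants, and 12.2 to 30.9 and 2.81 to 14.4 counts in the wild types. The higher value belonged to wild-type replicate 1 alone, and the wild-type libraries differed more from each other than the mutants did from wild-type replicate 2. Foxd1 did not pass the filter for low counts and was not tested. Without the filter its log2 fold change was -0.53 with a standard error of 0.66 (adjusted p = 1.00, edgeR), so no difference was detectable at this depth.

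**Figure D2:**
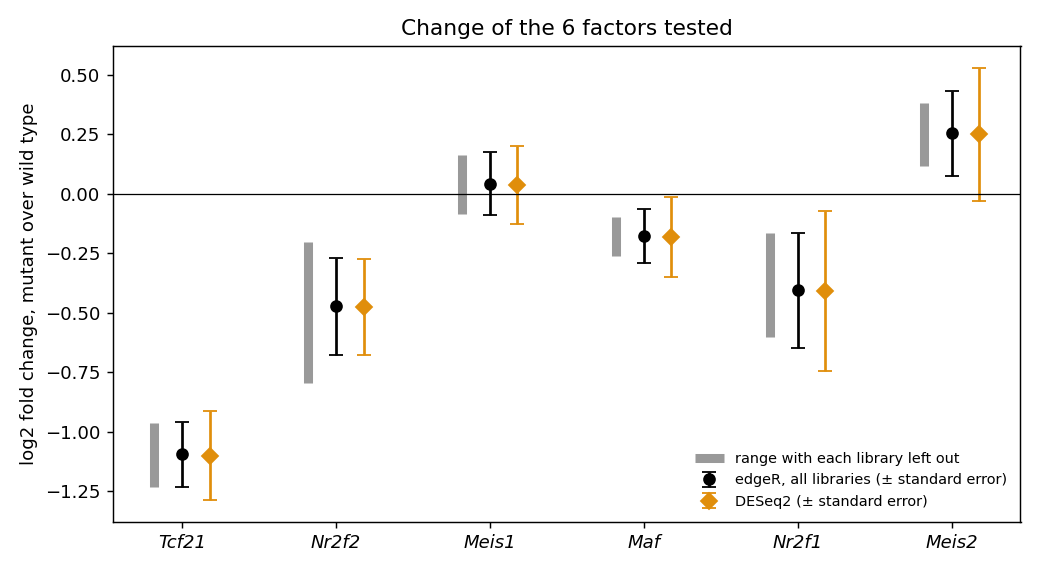
Log2 fold change of mutant over wild type for the 6 factors tested, in edgeR (black, ± standard error) and DESeq2 (orange, ± standard error), with the range obtained by leaving out each library in grey. Tcf21 lies at -1.096 and its range from -1.235 to -0.97 does not reach those of the other 5 factors.

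Whether Tcf21 was lower alone or together with the others was examined within each library, by subtracting the log2 CPM of the other factors from that of Tcf21. Against the median of the other 6, Tcf21 stood at 1.20 and 1.09 in the wild-type libraries and at 0.086 and 0.033 in the mutant libraries. Both mutants lay far below both wild types, with a difference of -1.088 on the log2 scale, or 2.13-fold. The SD was 0.074 among the wild types and 0.037 among the mutants (n = 2 each). This median is of levels, not of changes, and the factors of middle abundance set it. These were Maf with Nr2f1 in wild-type replicate 1, and Maf with Meis2 in the other libraries, so Nr2f2 did not enter. Against the mean of the other 6, in which each factor enters, the difference was -0.91. An exact two-sided permutation test over the 4 libraries gave p = 0.333, which is the smallest p that 2 against 2 libraries allow.
Against single factors, the difference was smallest for Nr2f2, at -0.60 on the log2 scale, and largest for Meis2, at -1.342. It was -0.70 against Nr2f1, -0.79 against Foxd1, -0.92 against Maf and -1.136 against Meis1. In all 6 comparisons both mutant libraries lay below both wild-type libraries, each with an exact permutation p of 0.333 (0.333 also after adjustment over the 6). The comparison with Foxd1 rests on 6 to 20 counts a library. Its gap was narrow, with 5.38 in mutant replicate 1 and 5.48 in wild-type replicate 1. Tcf21 therefore had the lowest log2 fold change, and Nr2f2 and Nr2f1, at -0.47 and -0.41, lay between it and the Meis genes without passing in this fit of genotype alone.

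**Figure D3:**
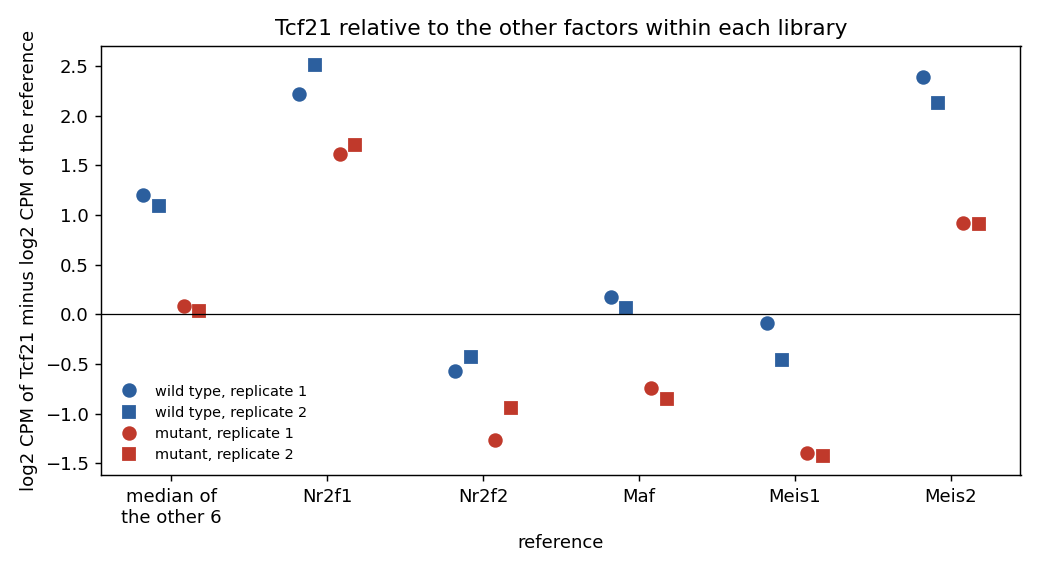
Log2 CPM of Tcf21 minus that of the reference named on the horizontal axis, in each library (wild type in blue, mutant in red). The red points lie below the blue points for every reference, from a difference of -0.60 against Nr2f2 to -1.342 against Meis2.

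Over the 4 libraries, the genes whose pattern was nearest to that of Tcf21 included Creb3l3, Lrrn1, Ak5 and Rapgef4. Likeness was taken as the Euclidean distance between log2 CPM values centred on each gene's mean, and it ran from 0.0828 for Creb3l3 to 0.159 for Rapgef4, with a median of 1.15 over 15441 genes. These genes were chosen on the same 4 libraries, so their likeness is a description, and its low members rest on few counts, such as 5 and 5 against 19 and 17 counts for Creb3l3. Lrrn1, a leucine-rich repeat membrane protein, was the most abundant, with 87.4 and 78.9 CPM in the mutants and 183 and 154 CPM in the wild types, a log2 fold change of -1.017 that the choice by likeness fixes. Of the other factors, Nr2f2 was at rank 376 of 15441 in distance from Tcf21, Nr2f1 at 542, Maf at 1545, Meis1 at 8389 and Meis2 at 12634.

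**Figure D4:**
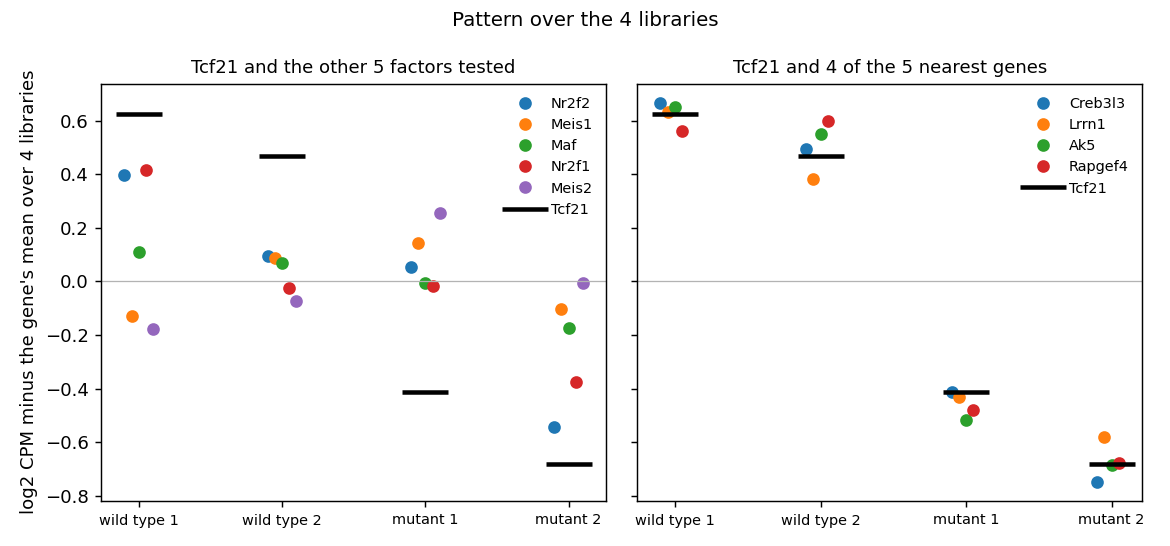
Log2 CPM minus each gene's own mean over the 4 libraries, with black bars for Tcf21 and points for the other 5 factors tested (left) or for 4 of the 5 nearest genes (right). The nearest genes were chosen for lying close to the bars, and of the other factors Nr2f2 and Nr2f1 lie at 0.052 and -0.015 against -0.41 for Tcf21 in mutant replicate 1, at -0.54 and -0.37 against -0.68 in mutant replicate 2, at 0.40 and 0.41 against 0.62 in wild-type replicate 1, and at 0.093 and -0.025 against 0.47 in wild-type replicate 2.

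Relatives and partners of these factors had log2 fold changes mostly near 0, and none passed. A list of 35 such genes held related basic helix-loop-helix genes with their dimer partners and Id inhibitors, Nr2f6 and cofactors of the nuclear receptors, other Maf and Bach proteins, other Foxd genes, and Meis3, Pknox, Pbx and Tgif genes. Of the 29 tested, 0 passed in edgeR (0.0583% of all genes did) and 0 of 28 in DESeq2 (0.694%). With shares this small, 0 calls say little about a list of this size. An unadjusted p under 0.05 in edgeR was reached by 3, all lower in mutants (2.73% of all genes were). The list's median log2 fold change was -0.095. The E-proteins with which Tcf21 dimerizes were close to 0, at -0.11 for Tcf3, -0.018 for Tcf4 and 0.14 for Tcf12 (none passed). Pknox2, a TALE protein, and Id1, an inhibitor of basic helix-loop-helix factors, had log2 fold changes of -0.47 and -0.33 (adjusted p = 0.769 and 0.738, edgeR).

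Genes of the fetal gonad interstitium had mostly negative log2 fold changes. Of 23 listed and tested, 18 had a log2 fold change below 0 (78.3%, against 50.2% of all genes), with a median of -0.24. In edgeR 0 passed (0.0583% of all genes did). An unadjusted p under 0.05 in edgeR was reached by 6 lower genes (2.73% of all genes) and by 1 higher gene, Ptch1 (2.95%), at 0.24. DESeq2 called 2 of the 23, both lower (0.416% of all genes). Pdgfra, the receptor of interstitial progenitors, had 168 and 139 CPM in the mutants and 232 and 217 CPM in the wild types. Its log2 fold change was -0.55 (SE 0.12), with adjusted p = 0.301 in edgeR and 0.00699 in DESeq2. Lum, which encodes the matrix proteoglycan lumican, had 27.0 and 19.5 CPM against 37.2 and 42.8 CPM, with a log2 fold change of -0.79 (adjusted p = 0.347 in edgeR and 0.0390 in DESeq2). For both genes the groups did not overlap. The abundant collagens had log2 fold changes of 0.15 for Col1a1, -0.039 for Col1a2 and -0.27 for Col3a1. Within replicate 1 their log2 differences were 0.45, 0.20 and 0.12, and within replicate 2 they were -0.27, -0.34 and -0.71. Some negative values of the list, such as those of Col1a2 and Col3a1, thus came from replicate 2 alone. Pdgfra (-0.47 and -0.65) and Lum (-0.46 and -1.129) were below 0 within both replicates. With each library left out in turn, the log2 fold change in edgeR ranged from -0.70 to -0.42 for Pdgfra and from -1.037 to -0.57 for Lum.

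Genes of the renal stroma also had mostly negative log2 fold changes, the lowest that of Aldh1a2. Of 17 listed, 16 were tested and 12 of them (75.0%) had a log2 fold change below 0, with a median of -0.20. In edgeR 0 passed (0.0583% of all genes did), while 4 lower genes (2.73% of all genes) and 0 higher genes (2.95%) had an unadjusted p under 0.05. DESeq2 called 2, both lower (0.416% of all genes). Aldh1a2, which makes retinoic acid, had 78.8 and 60.6 CPM in the mutants and 137 and 146 CPM in the wild types, with a wide gap between the groups. Its log2 fold change was -1.025 (SE 0.14, adjusted p = 0.106 in edgeR and 3.15e-08 in DESeq2). Cdkn1c, a cell cycle inhibitor, had 240.1 and 207 CPM against 302 and 309 CPM (log2 fold change -0.45, adjusted p = 0.347 in edgeR and 0.0293 in DESeq2). Fat4, a cadherin of the renal stroma, had a log2 fold change of -0.32 (adjusted p = 0.857, edgeR), and the renin gene Ren1 had 0 counts in each library. Within replicates 1 and 2 the log2 differences were -0.80 and -1.265 for Aldh1a2, -0.33 and -0.58 for Cdkn1c and -0.17 and -0.48 for Fat4. Some other genes changed sign between the replicates, with 0.32 and -0.37 for Dlk1, 0.11 and -0.88 for Lox and -0.57 and 0.033 for Ecm1. Aldh1a2 passed in edgeR without mutant replicate 1 (adjusted p = 0.00130) and without mutant replicate 2 (adjusted p = 0.0266), and Cdkn1c without mutant replicate 1 (adjusted p = 0.0435).

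**Figure D5:**
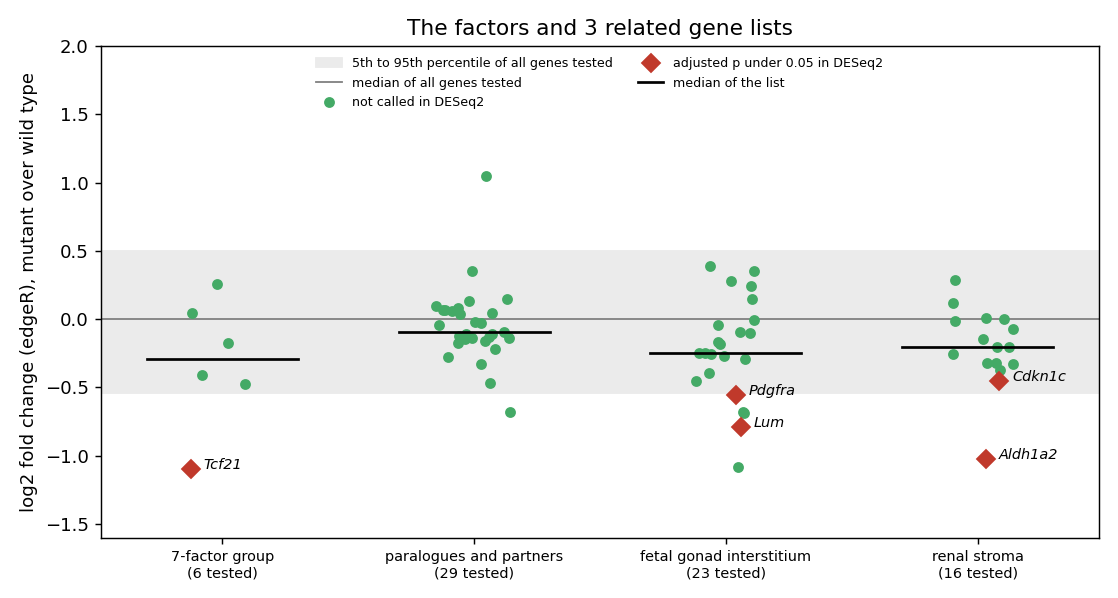
Log2 fold change (edgeR, mutant over wild type) of each tested gene in the group of factors and in 3 related lists, with black lines at the list medians and a grey band for the 5th to 95th percentile of all genes tested, -0.54 to 0.50. Red diamonds are the genes with an adjusted p under 0.05 in DESeq2, namely Tcf21, Pdgfra, Lum, Aldh1a2 and Cdkn1c, all below 0.

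Markers of neighbouring cell types were set beside these values. Mesonephric duct and tubule markers summed to 37.8 and 51.9 CPM in the mutants and 37.4 and 41.8 CPM in the wild types, and nephron progenitor markers to 21.1 and 37.9 CPM against 29.8 and 30.3 CPM, so that both sums overlapped between the genotypes. Of the 6 mesonephric markers tested, 1 lay higher in both mutants than in both wild types, Pax8, and 1 lower, Ret. Pax8 had 13.9 and 17.7 CPM in the mutants and 9.06 and 9.06 CPM in the wild types. Its log2 fold change was 0.80 (edgeR unadjusted p = 0.00382, adjusted p = 0.372), and that of Ret was -0.51 (unadjusted p = 0.0806, adjusted p = 0.982, edgeR). Over all genes tested, 15.8% lay higher in both mutants and 15.1% lower. Markers of the gonadal soma (Gata4, Wt1, Nr5a1, Lhx9 and Emx2) summed to 1138 and 948 CPM against 1098 and 1026 CPM, and pre-granulosa markers to 625 and 620 CPM against 581 and 606 CPM. Foxl2 had 46.2 and 44.1 CPM in the mutants and 27.9 and 32.0 CPM in the wild types, without overlap (log2 fold change 0.59, SE 0.12, edgeR unadjusted p = 0.00204 and adjusted p = 0.301). Of all these cell type markers, 0 of 59 tested passed in edgeR, where 0.0583% of all genes did. An unadjusted p under 0.05 in edgeR was reached by 11 of the 59, against 5.69% of all genes. Of these 11, 5 were higher in mutants (2.95% of all genes) and 6 lower (2.73%). DESeq2 called 3 markers, all lower in mutants (0.416% of all genes), among them Bmp2 and Lhx9 (log2 fold changes -0.80 and -0.56). The summed interstitium list, dominated by collagens, was 3674 and 2549 CPM in the mutants and 3379 and 3445 CPM in the wild types, with mutant replicate 2 as the low library. Endothelial markers summed to 416 and 395 CPM in the mutants and 435 and 451 CPM in the wild types, Leydig or adrenal markers to 41.5 and 46.9 CPM against 48.4 and 57.7 CPM, Sertoli markers to 64.3 and 59.2 CPM against 66.5 and 55.1 CPM, germ cell markers to 1393 and 1613 CPM against 1461 and 1584 CPM, and neural markers to 13.9 and 7.70 CPM against 16.7 and 10.02 CPM. Endothelial and Leydig or adrenal sums were lower in both mutants and the pre-granulosa sum was higher in both. The single markers of these lists were mixed, with 3 of 5 endothelial markers tested below 0 (median log2 fold change -0.021), 2 of 5 Leydig or adrenal markers below 0 (median 0.21) and 2 of 7 pre-granulosa markers below 0 (median 0.038). The part of these cell types in the level of Tcf21 and of the interstitium and renal stroma genes was not tested.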

How the data were processed

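The authors aligned the reads of 4 libraries with STAR 2.6.1d, per the submitters' processing notes to mm9, and counted them per gene with summarizeOverlaps. The deposited values are raw counts, neither normalized nor pooled. Annotation and strand handling are not given in the sources used here, and whether libraries came from separate animals is not stated, so p-values measure the spread between these libraries, which may be technical. Libraries of a genotype differed beyond sampling noise (chi-square per degree of freedom 9.40 and 10.7). Columns were matched by genotype and replicate number, leaving 0 unused.

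Counts were fitted in R 4.3.3 with edgeR 4.0.16 (TMM, filterByExpr, quasi-likelihood F-test, genotype only, all 4 libraries, Benjamini-Hochberg over 15442 genes, adjusted p under 0.05). Each SE was the absolute log2 fold change divided by the root of F. Log2 CPM used a prior count of 2. A count of 3 was the floor, 0.170 to 0.272 CPM. DESeq2 1.42.0, other normalizations, filters, a replicate block, the likelihood ratio test and leaving out libraries were alternatives. The fits were tested on simulated data.

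The factors, gene lists and tests were chosen with earlier results of these data known. Named were the 7 factors, Sall1, Wt1, list genes called in either tool or with the 3 smallest p of a list, and the 5 genes nearest to Tcf21. Ptch1, Tcf3, Tcf4, Tcf12, the collagens, Ren1, Dlk1, Lox, Ecm1, Ddx4, Foxl2, Amh, Bmp2, Lhx9, Pax8 and Ret were named after their values were seen. Some genes that the rule names are not reported here. Coordinates and exon lengths are from GENCODE M1 (NCBIM37), not the authors' annotation. Promoters of 6 of the 7 factors matched by symbol in RefSeq.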

Additional observations from a re-analysis of the deposited data

How the results depend on the processing

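With 2 libraries a group, the number of calls depended on the model. The 2 higher and 7 lower genes became 42 and 63 with DESeq2, 9 and 19 with no filter, 5 and 15 with at least 10 counts in every library and also at an adjusted p under 0.1, and 62 and 72 with the likelihood ratio test. With each library left out they ranged from 1 to 42 higher and from 3 to 88 lower. No source says that a replicate number marks a shared litter, batch or day, although same-numbered libraries have neighbouring library numbers in the column names, and their deviations from the group means correlated at 0.481 across genes. With the replicate block the calls became 180 higher and 205 lower, and with DESeq2 and the replicate block, added after seeing the data, 49 and 69.

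Of the 7 factors, 0 were called higher in any setting. The count of 0 lower factors became 1 under no filter, at least 10 counts, the likelihood ratio test, the 0.1 threshold and DESeq2 (in both of its designs), 2 with the replicate block in edgeR, and 0 to 2 with each library left out. The log2 fold change of Tcf21, -1.096, passed with DESeq2 (-1.101), no filter (-1.104), at least 10 counts (-1.092), the likelihood ratio test (-1.096), the replicate block (-1.097) and DESeq2 with the replicate block (-1.101), and ranged from -1.235 to -0.97 with each library left out. It did not pass with RLE or upper-quartile normalization. With the replicate block Nr2f2 passed too (-0.49, adjusted p = 0.0159, edgeR). Interstitium genes called lower, 0, became 2 with DESeq2, 4 with the replicate block, 3 with the likelihood ratio test, 1 with DESeq2 and the replicate block and 0 to 5 with each library left out. Renal stroma genes called lower, 0, became 2 with DESeq2, the replicate block or both, 1 with no filter, at least 10 counts or the likelihood ratio test, and 0 to 2 with each library left out. Relatives and partners called lower, 0, became 1 with the replicate block, Pknox2.

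The difference of Tcf21 from the median level of the other factors, -1.088, was -0.91 against their mean level. Against the median level it ranged from -1.140 to -1.036 with each library left out. Meis1, at 0.042, reversed to -0.085 without mutant replicate 1 and -0.061 without wild-type replicate 1 (range -0.085 to 0.16), and Wt1, at 0.032, to -0.084 without mutant replicate 1 (range -0.084 to 0.14). The cause of these changes was not tested. Foxd1, at 6 to 20 counts, was limited by depth.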
